A study of Mus musculus with 18 samples.

Results

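Fibrillar collagen genes were followed across 18 RNA-seq libraries of mouse optic nerve head, the region where ganglion cell axons exit the globe to form the optic nerve. From this collagen family 10 genes were chosen by name, out of 55416 genes in the deposited tables: Col1a1, Col1a2, Col2a1, Col3a1, Col5a1, Col5a2, Col5a3, Col11a1, Col11a2 and Col27a1. Below, the family means these 10 genes, and its shares are over them only. All 10 were found by Ensembl identifier and all 10 passed the filter on low counts that left 15118 genes. The tissue was cut from sections by laser capture microdissection, in which a chosen area is excised under a microscope. The groups were 22-month-old B6.EDA+/+ mice (3 libraries), 22-month-old C57BL/6J mice (5), 12-month-old B6.EDA+/+ mice (5) and 12-month-old C57BL/6J mice (5), with no other treatment named for any group. As background, the EDA+/+ allele was made so that fibronectin always keeps its extra domain A (EDA), a segment that normal splicing includes or skips, and C57BL/6J is the control strain. The labels do not say whether each library is 1 animal, so p-values measure the spread between libraries, which may be technical.

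Fibrillar collagens are triple helices of 3 chains that are secreted as procollagens, trimmed at both ends and packed into banded fibrils, which carry tension in the sclera, the lamina, the meninges and vessel walls. Type I collagen is mostly a heterotrimer of α1 chains from Col1a1 with an α2 chain from Col1a2, with 2 α1 chains for each α2 chain. Type III collagen is a homotrimer of Col3a1. Type V collagen, most often 2 chains of Col5a1 with 1 of Col5a2, lies inside type I fibrils and sets their number and width, and Col5a3 is a less common further chain. Col2a1, Col11a1 and Col11a2 make the fibrils of cartilage and vitreous, and Col27a1 is a distinct fibrillar chain of developing cartilage. In the optic nerve head, fibroblasts, vascular mural cells and the glia of the lamina are among the cells that can make them.

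Promoter sequence from RefSeq (build GRCm38.p6) was matched for 7 of the 10 genes. The promoters of the 3 most abundant chains are printed because these chains carry most of the family's signal. Each line gives the 250 bases before the annotated start, 5′ to 3′ on the gene's strand. Capitals mark CCAAT, the GC box GGGCGG or TATAAA, read on both strands. No letter belongs to matches of more than 1 of these motifs.
Col1a2: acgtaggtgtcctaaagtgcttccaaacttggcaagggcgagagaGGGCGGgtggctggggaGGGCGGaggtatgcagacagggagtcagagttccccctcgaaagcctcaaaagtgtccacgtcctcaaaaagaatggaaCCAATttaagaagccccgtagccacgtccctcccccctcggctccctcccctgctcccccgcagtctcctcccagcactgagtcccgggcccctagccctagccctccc
Col3a1: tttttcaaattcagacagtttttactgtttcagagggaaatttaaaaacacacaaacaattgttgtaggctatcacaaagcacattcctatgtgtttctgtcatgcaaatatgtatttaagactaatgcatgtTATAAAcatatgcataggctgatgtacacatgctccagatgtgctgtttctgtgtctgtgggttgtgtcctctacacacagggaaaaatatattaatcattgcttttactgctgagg
Col5a1: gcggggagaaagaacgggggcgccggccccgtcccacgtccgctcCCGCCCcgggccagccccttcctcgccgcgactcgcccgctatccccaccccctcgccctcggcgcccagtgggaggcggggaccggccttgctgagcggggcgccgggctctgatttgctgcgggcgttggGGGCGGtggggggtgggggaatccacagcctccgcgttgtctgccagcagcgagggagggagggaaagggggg
The Col1a2 window (chr6:4505368-4505617, plus strand) was 62% G or C and held 1 CCAAT and 2 GC boxes. The Col3a1 window (chr1:45311288-45311537, plus strand) was 35.2% G or C and held 1 TATAAA, with neither of the other motifs. The Col5a1 window (chr2:27886175-27886424, plus strand) was 76.4% G or C and held 2 GC boxes, with neither of the other motifs. Among 32851 promoter windows of the same length, 33.8% held CCAAT, 32.7% held GGGCGG and 12.4% held TATAAA. A match is a run of letters, not a measured binding site.

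Depth was 13097498 to 18488733 expected counts, with 9703 to 13048 genes reaching 10 counts. The 22-month EDA-labelled library 3 had the fewest genes detected, and the 12-month EDA-labelled library 4 the highest share of reads from the astrocyte gene Gfap (3.46%). The leading chains are also given without these 2 libraries, a choice made after seeing the data. Both are EDA-labelled, and every control-labelled library was kept in that setting. They held the 2 lowest Col1a2 and the 2 highest Col5a1 values, so leaving them out shrinks the differences between labels in these chains. Estimated levels of fibronectin isoforms did not follow the genotype labels. At 22 months, 4.21% ± 7.29 (SD, n = 3) of the Fn1 transcripts that span the EDA exon kept it where the label was EDA, and 41.8% ± 53.3 (SD, n = 5) where it was control (exact two-sided permutation p = 0.571). At 12 months the shares were 22.8% ± 28 (SD, n = 5) and 31.1% ± 44.6 (SD, n = 5; exact two-sided permutation p = 0.762). The estimated share was 0 in 4 of 8 EDA-labelled and 5 of 10 control-labelled libraries. It rests on 66.87 to 1485 reads per library on the spanning isoforms, and reads outside the exon are assigned by likelihood. These estimates therefore cannot decide the genotype of a library. The groups are called EDA-labelled and control-labelled, and each direction is between labels.

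The family was a small part of the tissue's RNA, and 2 chains dominated it. The 10 genes together took 0.0298% to 0.0591% of a library's counts and 70.3 to 136.8 TPM (a level that corrects for the length of the transcript and the library's size). Col1a2 and Col5a1 together held 64.3% to 95.7% of the family's TPM, with a median of 87.4%. Col1a2 alone held a median of 66.4% and Col5a1 20.4%. Col3a1 followed with 6.67% and Col1a1 with 3.05%. By median TPM, Col1a2 ranked 1425th, Col5a1 3258th, Col3a1 6145th and Col1a1 8938th of 14527 genes with a median above 0. In such bulk tissue, fewer cells of a type and less RNA per cell cannot be told apart.

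Col1a2, the α2 chain of type I collagen, was at 70.5, 79.7 and 23.6 TPM in the 22-month EDA-labelled libraries. In the 22-month control-labelled libraries it was at 66.3, 55.5, 57.6, 79.8 and 54.8 TPM. The 12-month EDA-labelled libraries had 65.3, 92.8, 41, 29.1 and 67.5 TPM. The 12-month control-labelled libraries had 61.4, 67.8, 57.3, 65.4 and 81.8 TPM. The control-labelled libraries lay close together, while both the lowest and the highest values were EDA-labelled, and the groups overlapped. The lowest 2 values came from the 2 libraries that stand apart.

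Col5a1, the main chain of the fibril-initiating type V collagen, was at 37.1, 15.5 and 43.5 TPM in the 22-month EDA-labelled libraries. In the 22-month control-labelled libraries it was at 9.30, 25.3, 28.7, 20.0 and 24.9 TPM. The 12-month EDA-labelled libraries had 19.2, 15.8, 23.6, 57.5 and 24.2 TPM, and the 12-month control-labelled libraries 13.5, 8.97, 23.7, 15.8 and 13.8 TPM. The 2 highest values, 57.5 and 43.5 TPM, were in the same 2 libraries in which Col1a2 was lowest. At both ages the labels overlapped.

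Col3a1, the chain of type III collagen, which is prominent in vessels and loose connective tissue, was at 13.4, 12.4 and 1.78 TPM in the 22-month EDA-labelled libraries and at 7.10, 4.03, 8.02, 7.64 and 3.05 TPM in the control-labelled ones. At 12 months it was at 14.9, 8.20, 6.74, 26.8 and 3.21 TPM in the EDA-labelled and at 2.88, 2.77, 2.92, 4.57 and 12.4 TPM in the control-labelled libraries. The 12-month labels overlapped through 3.21 TPM in an EDA-labelled and 4.57 and 12.4 TPM in control-labelled libraries, and at 22 months through 1.78 TPM in an EDA-labelled one.

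Col1a1, which encodes the chain that type I collagen needs most of, was at 9.61, 4.63 and 0.25 TPM in the 22-month EDA-labelled libraries and at 0.18, 1.63, 4.91, 3.97 and 0.77 TPM in the control-labelled ones. At 12 months it was at 3.31, 0.91, 2.74, 16.4 and 7.29 TPM in the EDA-labelled and at 2.47, 0.07, 0.02, 0.89 and 6.14 TPM in the control-labelled libraries. Its counts ran from 1 to 529 per library, and 15 of 18 libraries had at least 10. Every group spanned a wide range of Col1a1 and the labels overlapped at both ages. Its within-group SD of 1.97 log2 units was larger than that of 79.6% of the 1534 genes of similar mean level.

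The other 6 chains were scarce. Col2a1, the cartilage and vitreous chain, reached 5.31 TPM in a 12-month control-labelled library and had a median of 0.965 TPM. Col11a1, its fibril partner, reached 4.43 TPM in a 22-month control-labelled library and had a median of 0.475 TPM, with no reads in 4 libraries. Col5a2, the partner of Col5a1, had a median of 0.43 TPM and a highest value of 2.24 TPM, with no reads in 3 libraries. Col27a1 had no reads in 6 libraries, Col5a3 in 8 and Col11a2 in 9, and their medians were 0.145, 0.04 and 0.045 TPM. For these 3 genes at least 10 counts were reached in 7, 6 and 7 libraries.

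**Figure D1:**
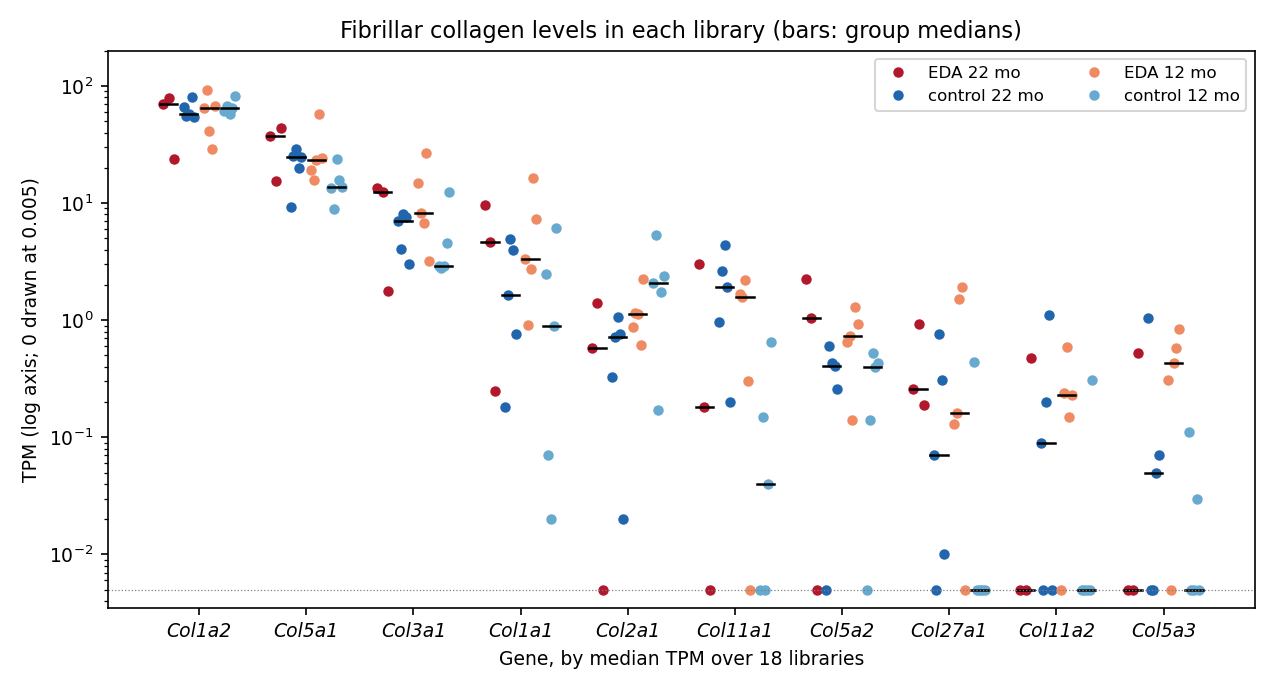
TPM of each fibrillar collagen gene (log axis, values of 0 drawn at 0.005) in each of the 18 libraries, one point per library, colored by label and age, with bars at group medians. Col1a2 and Col5a1 lie above 8 TPM in every library, while the 6 genes on the right lie below 6 TPM and many of their libraries are at 0.

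Neighbours in the order of median TPM were compared in 9 pairs, and the 3 pairs among the 4 highest genes differed. Col1a2 exceeded Col5a1 in 16 of 18 libraries (mean difference 1.5 ± 1.11 SD on the log2(TPM + 0.1) scale, paired permutation test, adjusted p = 0.00045). Col5a1 exceeded Col3a1 in 18 of 18 (1.74 ± 1.16, paired permutation test, adjusted p = 9.0e-05, from the smallest p that the resampling can give). Col3a1 exceeded Col1a1 in 17 of 18 (1.77 ± 1.56, paired permutation test, adjusted p = 0.00045). The other 6 neighbouring pairs, from Col1a1 over Col2a1 down to Col11a2 over Col5a3, did not differ beyond their spread (adjusted p from 0.135 to 0.856).

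The partner chains of type I and of type V collagen were far from equal. Per transcript length, Col1a1 was below Col1a2 in 18 of 18 libraries, with a ratio from 0.000399 to 0.566 and a median of 0.0452, so that Col1a2 was a median of 22.1 times higher. In the heterotrimer the α1 chains are the more numerous, but these values are of RNA, and protein was not measured here. The highest ratio was in the 12-month EDA-labelled library 4, with 529 Col1a1 and 1449 Col1a2 counts (95% exact binomial interval 0.511 to 0.625). The lowest was in a 12-month control-labelled library with 1 Col1a1 and 2619 Col1a2 counts (interval 6.7e-06 to 0.00148). These intervals cover counting error only, since the reads carry no molecular identifiers. With only the full-length coding isoform of each chain, an alternative chosen after seeing the data, the median ratio was 0.0221.

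The transcripts of both type I chains are close in length and base composition. The Col1a1 transcript has 5930 nt and 58.9% G or C, and the Col1a2 transcript 5348 nt and 55.7%. Over the 10 genes the longest coding transcripts ran from 5104 to 8406 nt and from 48.0% to 62.9% G or C. How completely the long, low-input cDNA covered each chain was not tested.

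In type V collagen the imbalance went toward the α1 chain. Col5a1 exceeded Col5a2 per length in 18 of 18 libraries, with a median ratio of 44.2, or 81.6 with the full-length coding isoforms only. Among the 15 libraries with Col5a2 reads, the lowest ratio without a pseudocount was 14.7 (interval 10.1 to 22.2, 1207 against 28 counts) and the highest 172.5 (96.3 to 346.1, 2420 against 11 counts). In the 3 libraries with no Col5a2 read, Col5a1 was 94.4, 150.5 and 485.0 times higher when set against a limit of 3 counts per library. The lower ends of the exact intervals for these libraries were 76.6, 122.2 and 394.2. Against the same measure, Col3a1 exceeded Col1a1 in 17 of 18 libraries (median ratio 2.57, or 3.98 with full-length isoforms) and Col5a1 exceeded Col1a1 in 18 of 18 (median 7.17, or 17.4). Col5a1 was above Col1a2 in 2 libraries only, the 22-month EDA-labelled library 3 and the 12-month EDA-labelled library 4.

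**Figure D2:**
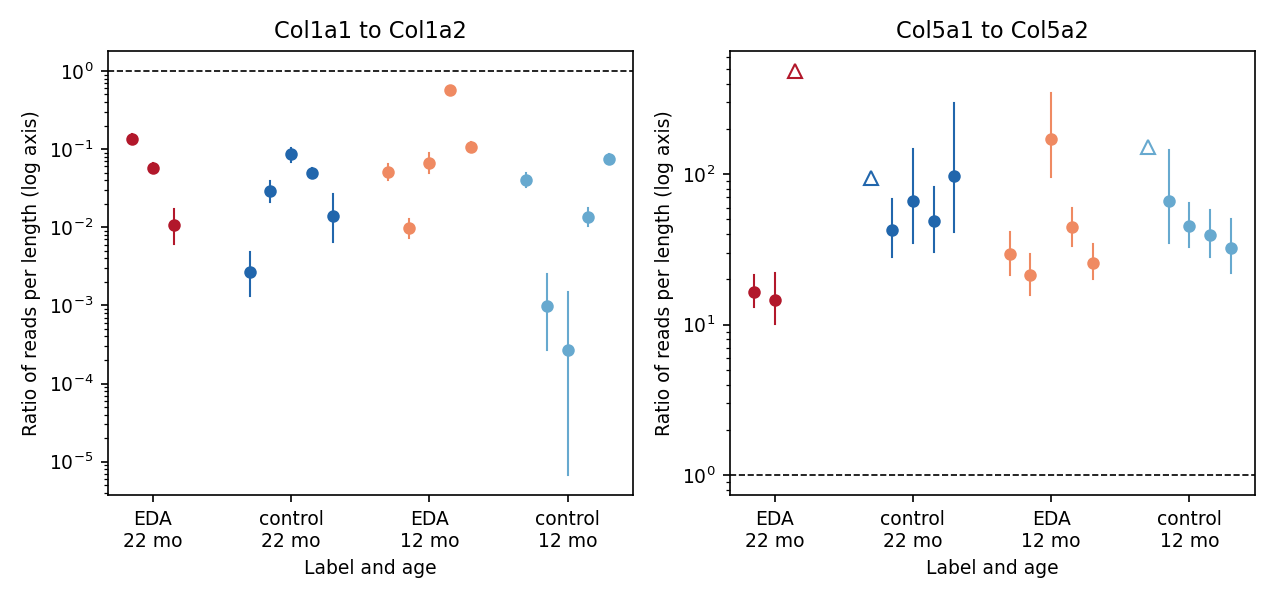
Ratio of counts per transcript length (log axis) for Col1a1 to Col1a2 and for Col5a1 to Col5a2, one point per library by label and age, with 95% exact binomial intervals of counting error; open triangles are lower bounds where Col5a2 had no reads and the dashed line marks equal levels. All 18 Col1a1 to Col1a2 ratios lie below 1 and all 18 Col5a1 to Col5a2 ratios lie above 1.

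The chain ratios were not shown to depend on label or age. The mean log2 ratio of Col1a1 to Col1a2 at 22 months was -4.50 ± 1.85 (SD, n = 3) under the EDA label and -5.50 ± 1.91 (SD, n = 5) under the control label, a difference of 1.00 (exact permutation p = 0.5). At 12 months it was -3.77 ± 2.10 (SD, n = 5) and -7.13 ± 3.29 (SD, n = 5), a difference of 3.35 (exact permutation p = 0.103). That p was the lowest of the 16 ratio tests, which cover Col1a1 to Col1a2, Col3a1 to Col1a1, Col5a1 to Col5a2 and Col5a1 to Col1a1 by label at each age and by age within each label, and its adjusted value was 0.952. The 12-month control mean rests on libraries 2 and 3, which had 4 and 1 Col1a1 counts, and leaving out single libraries moved the difference between 2.31 and 4.2. The Col5a1 to Col5a2 ratio differed between labels by -0.04 at 22 months and by -0.96 at 12 months (exact permutation p = 1.00 and 0.452). With 3 against 5 libraries the smallest p this test can give is 0.0357, and with 5 against 5 it is 0.00794.

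Whether EDA-labelled tissue carried more fibrillar collagen RNA was compared at each age. At 22 months none of the 10 genes differed at an adjusted p of 0.05 (edgeR quasi-likelihood test, Benjamini-Hochberg over 15118 genes), as was the case for 0% of all genes. At an unadjusted p of 0.05 the edgeR count was 0 of 10, beside 3.96% of all genes, and 1 (Col5a1) without the EDA-labelled library 2. DESeq2 and limma-voom called 0 of 10 as well. Here and below, shares of all genes are from edgeR only, so counts from the other 2 methods have none beside them. The fitted log2 fold change was above 0 for 7 of 10 genes, with a median of 0.59, beside 46% of all genes and a median of -0.07. Without the 2 libraries that stand apart it was above 0 for 6 of 10, with a median of 0.41.

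Among the chains with most reads at 22 months, Col1a1 had a log2 fold change of 1.25 ± 1.2 (SE) and Col3a1 of 0.50 ± 0.70, and 1.76 and 0.85 without the 2 libraries that stand apart. Col5a1 had 0.68 ± 0.47 and was above the control median in 2 of 3 EDA-labelled libraries. Its value was 0.03 without those libraries. Col1a2 had -0.36 ± 0.37, and -0.01 without those libraries. The scarce chains had wide errors: Col5a2 1.34 ± 1.46, Col27a1 1.55 ± 1.94, Col11a2 1.11 ± 2.15, Col2a1 0.22 ± 1.26, Col5a3 -0.06 ± 2.12 and Col11a1 -0.85 ± 1.84. The only Col5a3 and Col11a2 reads of the 22-month EDA label came from library 3, one of those that stand apart. In each of the 10 genes the TPM ranges of the labels overlapped at both ages. No share over all genes stands beside this overlap, so it is a description of these genes only.

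At 12 months, with 5 libraries on each side, again 0 of 10 genes passed the adjusted threshold in edgeR, beside 0% of all genes, and DESeq2 and limma-voom called 0 of 10. At an unadjusted p of 0.05 the edgeR count was 0 of 10, beside 4.56% of all genes, and limma-voom had 1 (Col27a1). With single control-labelled libraries left out the edgeR count was up to 2 (Col5a3 and Col27a1 without library 1, Col11a1 and Col11a2 without library 5) and 1 (Col5a1) without library 3. The log2 fold change was above 0 for 8 of 10 genes, with a median of 1.10, beside 49.5% of all genes and a median of -0.01. Without the 2 libraries that stand apart the count was also 8 of 10 and the median 0.59. Col1a1, Col3a1 and Col5a1 were above the control median in 5 of 5 EDA-labelled libraries, the 5 chains Col5a2, Col5a3, Col11a1, Col11a2 and Col27a1 in 4 of 5 and Col2a1 in 1 of 5. That median was 0 TPM for Col5a3, Col11a2 and Col27a1, so any read put a library above it, and 0.04 TPM for Col11a1. No share over all genes stands beside these counts, so they are a description. Col1a1, Col3a1 and Col5a1 had log2 fold changes of 1.28 ± 1.07, 0.54 ± 0.62 and 0.69 ± 0.41 (SE). These values were 0.33, 0.07 and 0.24 without the 2 libraries that stand apart. Col1a2 had -0.39 ± 0.32 and was below the control median in 3 of 5 EDA-labelled libraries, and its value was -0.22 without the 2 libraries that stand apart.

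Of the scarce chains at 12 months, Col5a3 had the largest value, 3.68 ± 2.04, with an unadjusted edgeR p of 0.0859. Its counts reached 32 under the EDA label and 5 under the control label. Col27a1 had 2.36 ± 1.81, Col11a1 1.75 ± 1.60, Col11a2 1.54 ± 1.94 and Col5a2 0.92 ± 1.30. In the control-labelled group, library 1 held all 25 Col27a1 counts, and library 5 held all 19 Col11a2 counts and 40 Col11a1 counts. Without the control-labelled library 1 Col27a1 was 7.68, and without the control-labelled library 5 Col11a1 was 4.71 and Col11a2 6.56. Leaving out these libraries left no Col27a1 or Col11a2 read in the control-labelled group, so those fitted values depend on the prior count. Col2a1, at -0.78 ± 1.10, and Col1a2 were the 2 genes below 0.

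**Figure D3:**
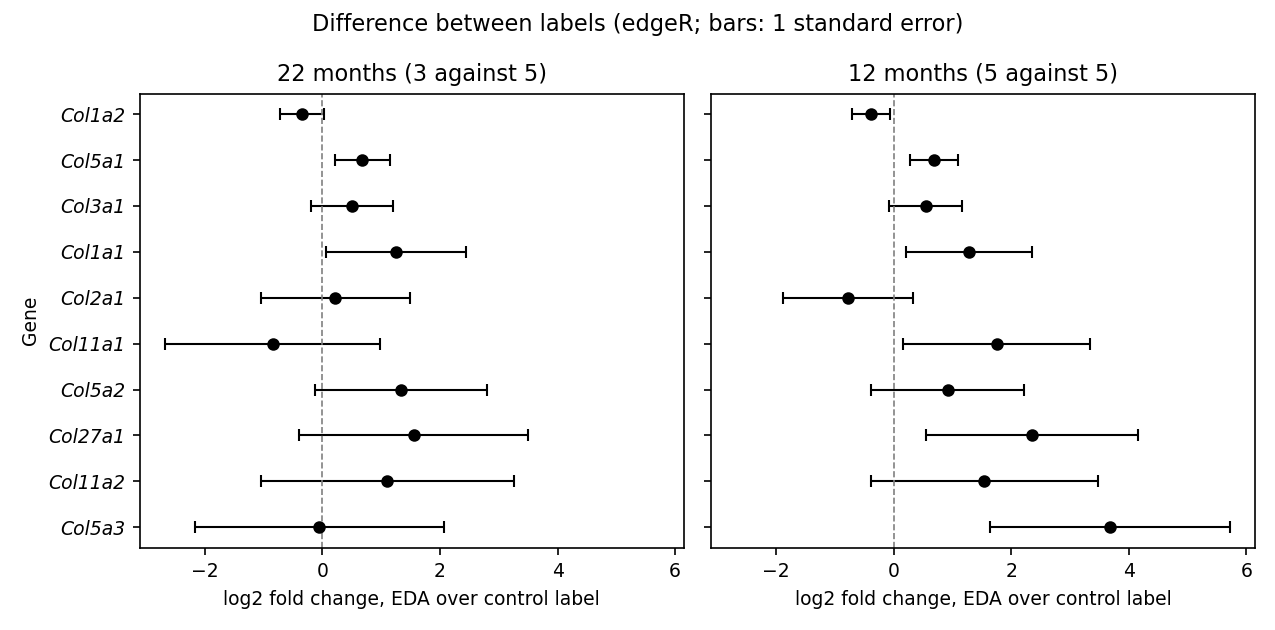
Log2 fold change of EDA-labelled over control-labelled libraries for the 10 genes at 22 months (3 against 5 libraries) and 12 months (5 against 5), with bars of 1 standard error from edgeR. Col1a2 and Col5a1 have the shortest bars and lie on opposite sides of 0 at both ages, at -0.36 and 0.68 and at -0.39 and 0.69, and no gene passed the adjusted threshold.

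With both ages averaged, the only gene of the family at an unadjusted p of 0.05 was Col5a1 (1 of 10, beside 4.76% of all genes). Its log2 fold change was 0.68 ± 0.31 (SE), with an unadjusted edgeR p of 0.0410 and an adjusted p of 1.00. Without the 2 libraries that stand apart the value was 0.14, and leaving out single libraries moved it between 0.36 and 0.87, with an unadjusted p above 0.05 for 8 of the 18 libraries. No gene of the family passed the adjusted threshold in edgeR (0 of 10, beside 0% of all genes), nor in DESeq2 or limma-voom. At p under 0.05, limma-voom had Col27a1 in place of Col5a1. The fold change was above 0 for 8 of 10 genes, with a median of 0.90, beside 46.8% of all genes, and for 7 of 10 with a median of 0.30 without those libraries. Col1a1 had 1.26 ± 0.80, Col3a1 0.52 ± 0.47 and Col1a2 -0.37 ± 0.25, and 1.04, 0.46 and -0.12 without those libraries. Col2a1 had -0.28 ± 0.84. Col5a2 had 1.13 ± 0.98, Col5a3 1.81 ± 1.39, Col11a1 0.45 ± 1.17, Col11a2 1.32 ± 1.44 and Col27a1 1.95 ± 1.32.

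Age was compared within each label. Between 22 and 12 months in control-labelled tissue 0 of 10 genes passed the adjusted threshold in edgeR, beside 0% of all genes, and 0 of 10 had an unadjusted p under 0.05, beside 3.51%, with Col11a1 at that level in limma-voom and up to 2 genes (Col11a1 and Col11a2) with single libraries left out. The largest differences were in scarce chains, Col5a3 at 3.55 ± 2.03 and Col11a1 at 2.50 ± 1.64. Without the 22-month control-labelled library 1, which held 67 of the 72 Col5a3 counts of its group, the Col5a3 value was -0.03. Col2a1 had -1.44 ± 1.12, Col5a1 0.52 ± 0.41, Col1a2 -0.14 ± 0.32 and Col1a1 0.01 ± 1.06. In EDA-labelled tissue 0 of 10 passed, beside 0% of all genes, and 0 of 10 had an unadjusted edgeR p under 0.05, beside 4.98%, and 1 of 10 with single libraries left out (Col5a1 without the 12-month library 4, Col5a3 without the 22-month library 3). Col5a1 had 0.50 ± 0.47 there, and -0.13 without the 22-month EDA-labelled library 3. DESeq2 and limma-voom called 0 of 10 in both age comparisons and in the interaction. The difference between the ages in the effect of label (interaction) passed in edgeR for 0 of 10, beside 0% of all genes, with 0 of 10 at an unadjusted p of 0.05, beside 4.02%, 1 (Col11a2) in limma-voom and up to 1 with single libraries left out (Col5a3, Col11a1 or Col27a1) or without the 2 libraries that stand apart (Col5a3). These comparisons share libraries, so their values are not independent of each other.

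The clearest pattern within the family was between the 2 leading chains. With group means removed, Col1a2 and Col5a1 (log2 CPM on TMM-scaled library sizes) were negatively correlated over 18 libraries (Pearson r = -0.85, permutation p = 0.00017, adjusted over 10 pairs 0.0017; Spearman rho = -0.81, permutation p = 0.0003, adjusted 0.003). Without the 2 libraries farthest from the median, which are those that stand apart, r was -0.73. Within the 4 groups r was -0.91, -0.82, -0.85 and -0.90, over 3, 5, 5 and 5 libraries. Col1a1 and Col3a1 were positively correlated, with r = 0.65 (permutation p = 0.0109, adjusted 0.0545) and rho = 0.72 (permutation p = 0.00286, adjusted 0.0143). The 2 libraries farthest from the median of Col1a1 were the 12-month control-labelled library 3 and the 22-month EDA-labelled library 3. Without these, r between Col1a1 and Col3a1 was 0.52. The partner chains Col1a1 and Col1a2 gave r = 0.20 (permutation p = 0.438, adjusted 0.701) and rho = 0.24 (permutation p = 0.369). Their r was -0.11 without the 2 libraries farthest in Col1a1. Col5a1 and Col5a2 gave r = 0.01 (permutation p = 0.973) and rho = 0.06 (permutation p = 0.848). The other 6 pairs had adjusted p-values from 0.701 to 0.954.

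Measures of the library itself moved with the leading chains. Beside the pair, Col5a1 was negatively correlated with the number of genes that had at least 10 counts (r = -0.69, permutation p = 0.0087, adjusted over 6 relations 0.0174; rho = -0.60, permutation p = 0.0281; r = -0.56 without the 2 farthest libraries). It was also negatively correlated with the log2 share of ENSMUSG00000119584, a gene that took 3.26% to 32.8% of a library (r = -0.78, permutation p = 0.00243, adjusted 0.0115; rho = -0.73, permutation p = 0.00436; r = -0.63 without the 2 farthest). Col1a2 went the opposite way with that share (r = 0.74, permutation p = 0.00385, adjusted 0.0115; rho = 0.63, permutation p = 0.0215; r = 0.62 without the 2 farthest). With the number of genes detected, Col1a2 gave r = 0.57 (permutation p = 0.0372, adjusted 0.0558; rho = 0.47, permutation p = 0.0903; r = 0.36 without the 2 farthest). With the Gfap share, Col5a1 gave r = -0.014 (permutation p = 0.967; rho = -0.12, permutation p = 0.683) and Col1a2 r = -0.00484 (permutation p = 0.989; rho = 0.11, permutation p = 0.725). Without the 2 farthest libraries these r values were -0.40 for Col5a1 and 0.25 for Col1a2. After a straight line on genes detected was removed from both chains, their correlation was -0.77, and after one on the share of ENSMUSG00000119584 it was -0.64. The 2 farthest libraries here are those farthest from the median of the library measure in each relation. The library measures were chosen after seeing the data.

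**Figure D4:**
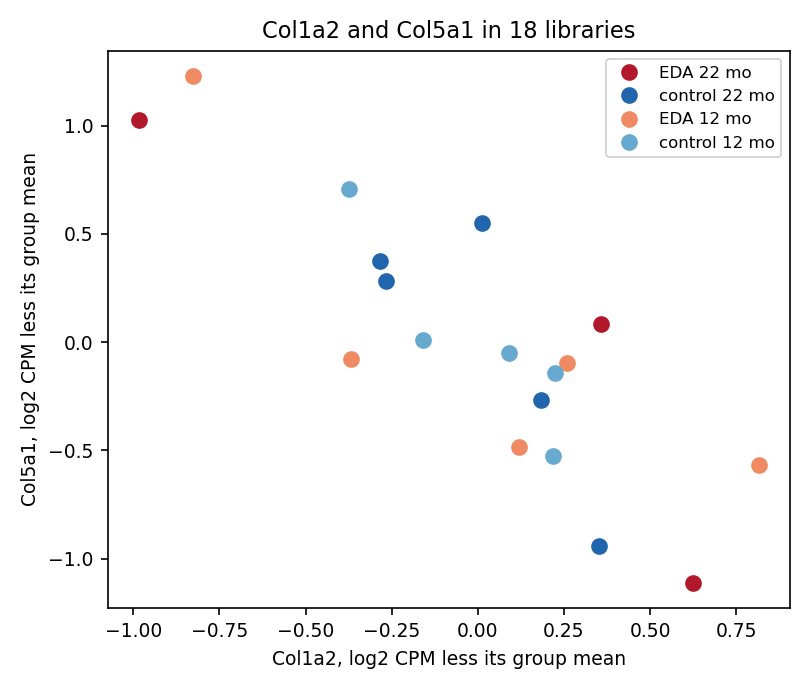
Col1a2 against Col5a1, each as log2 CPM less its group mean, one point per library colored by label and age. The 18 points fall from upper left to lower right (r = -0.85), and the 2 libraries at the upper left are the 22-month EDA-labelled library 3 and the 12-month EDA-labelled library 4.

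The genes outside the family whose levels most resembled Col5a1, Col1a1 and Col3a1 over the 18 libraries were ranked by Spearman rho among 7176 genes, as a description with no test. For Col5a1 they were Flt3 (0.91), Atg9a (0.91), Cyp46a1 (0.91), Pde12 (0.91) and Bhlhe40 (0.90). For Col1a1 they were Nomo1 (0.83), Slc41a1 (0.82), Efs (0.81), Zmiz2 (0.79) and Lrig2 (0.78). For Col3a1 they were Sp2 (0.82), Zfp800 (0.80), Gna13 (0.79), Tbc1d9b (0.78) and Kif5b (0.78). The libraries share depth and tissue composition, which enter every such value.

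The kinds of transcript that the reads were assigned to differed along the family. Protein-coding isoforms held 100% of the Col5a1 reads, 98.4% of Col3a1, 97.9% of Col1a2 and 96.8% of Col1a1. They held 94.9% of Col11a2, 93.6% of Col2a1 and 80.7% of Col5a2. Among the scarce chains Col5a3 had 31.8% of its reads on a retained-intron isoform. Col11a1 had 38% on isoforms annotated for nonsense-mediated decay, the pathway that removes transcripts with early stop codons. Col27a1 had only 42.9% on its coding isoform and 31.9% on retained-intron isoforms. Shares are over all libraries together, and isoform counts are estimates, from 216 reads in all for Col5a3, 280 for Col27a1 and 562 for Col11a1.

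Col2a1 is known for an exon near its start, exon 2, that is kept in the early, IIA form and skipped in the cartilage IIB form. The coding isoform with exon 2 (204 nt) took all of the Col2a1 coding reads in 4 of the 14 libraries with at least 10 reads, the isoform without it took all in 9, and 1 library had both. Reads are few (at most 119 a library), and RSEM assigns reads outside the exon by likelihood.

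The genes that fold, export, crosslink and bind these chains were taken from lists, and none of them passed the adjusted edgeR threshold at either age. Counts of genes above 0 in these lists stand beside 46% of all genes at 22 months and 49.5% at 12 months. Of 18 tested folding and modification genes, 13 were above 0 at 22 months and 12 at 12 months. With an unadjusted p under 0.05, P3h1, which hydroxylates prolines of the collagen chains, had a log2 fold change of 1.29 ± 0.62 (SE) at 22 months, and 0.31 ± 0.55 at 12 months. P4ha1, a catalytic subunit of prolyl 4-hydroxylase, had 0.68 ± 0.32 at 12 months, and 0.017 ± 0.36 at 22 months. Plod2, a lysyl hydroxylase, had 0.87 ± 0.49 at 22 and -0.026 ± 0.43 at 12 months. P4ha3 had opposite signs, with -0.54 ± 0.43 at 22 and 0.71 ± 0.37 at 12 months. Of 11 tested secretion and propeptide genes, 4 were above 0 at 22 months and 6 at 12 months. Mia3, which loads procollagen into transport vesicles, had -1.24 ± 0.58 at 22 and 0.27 ± 0.48 at 12 months. Sec24d, a coat protein of those vesicles, had 0.41 ± 0.35 at 22 and 0.83 ± 0.31 at 12 months. The coat protein gene Sec23a had -0.99 ± 0.71 and -0.67 ± 0.59 at the respective ages.

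Of 5 crosslinking genes, 2 were above 0 at 22 months and 3 at 12 months. Loxl1, a lysyl oxidase relative, had 1.16 ± 0.55 at 22 months and 0.62 ± 0.49 at 12 months. Loxl4 had 2.93 ± 2.35 and 0.94 ± 2.06 at the respective ages, and Loxl2 -0.13 ± 0.68 and 0.61 ± 0.59. Of 14 tested fibril-associated collagens and proteoglycans, 10 were above 0 at 22 months and 9 at 12 months. Lum, the proteoglycan lumican that spaces fibrils, had 0.90 ± 0.34 at 22 and 0.07 ± 0.30 at 12 months. Col12a1, a fibril-associated collagen, had 1.13 ± 0.45 at 22 and -0.37 ± 0.40 at 12 months. Its relative Col14a1 had 1.02 ± 1.01 at 22 and 2.65 ± 0.95 at 12 months, and the proteoglycan gene Fmod 0.06 ± 0.42 and -0.53 ± 0.37.

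Of 10 collagen receptors, 5 were above 0 at each age. The integrin chain gene Itga10, with at most 58.2 counts in a library, had 5.09 ± 1.99 at 22 and -1.48 ± 1.63 at 12 months. Itga2, another integrin chain, had no reads in the 3 EDA-labelled libraries at 22 months. The control-labelled ones had 0 to 81 counts (median 16), with 1 of 5 at 0. Their mean of 1.97 CPM was 9.09-fold above a limit of 3 counts per library, with no allowance for the spread between libraries. Fitted values for Itga2 were -7.92 ± 3.19 at 22 months, with 1 group without reads, and 0.73 ± 1.87 at 12 months. At 12 months 3 of 5 libraries of each label had no Itga2 reads. Adgrg1, a receptor for type III collagen, had -0.17 ± 0.37 at 22 and -0.55 ± 0.32 at 12 months. Mrc2, which takes up collagen, had -0.43 ± 1.74 at 22 and 1.44 ± 1.52 at 12 months. Of 5 tested degradation genes, 3 were above 0 at each age. Mmp2 had 0.95 ± 1.54 at 22 and 0.50 ± 1.37 at 12 months, and Ctsk 0.91 ± 1.83 and -0.32 ± 1.61. The inhibitor Timp2 had 0.12 ± 0.38 and 0.57 ± 0.33 at the respective ages, and the collagenase Mmp14 -0.15 ± 0.51 and -0.34 ± 0.44.

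Markers of the cells that could make or dilute these transcripts also varied. Summed over 14 fibroblast markers, CPM ran from 364.5 to 646.2 in the 22-month EDA-labelled and from 130.6 to 370.8 in the 22-month control-labelled libraries. At 12 months they ran from 127.6 to 295.7 in the EDA-labelled and from 191.9 to 462.9 in the control-labelled libraries, so the label with the higher median differed between the ages (393.0 against 174.6 at 22 months and 268.7 against 398.3 at 12 months, EDA-labelled first). Of the 14, 5 had reads in every library, among them the receptor gene Pdgfra (8.40 to 79.2 CPM), and 6 were at 0 in at least 12 libraries, among them Dpt. The 8 cartilage markers summed to 0.27 to 31.8 CPM, mostly from Cnmd (median 17.5 CPM, at 0 in 2 libraries). Matn3 was at 0 in 8 libraries, while Acan and Hapln1 were at 0 in all 18. Astrocyte markers summed to 8075 to 40298 CPM, highest in the 12-month EDA-labelled library 4, which had the highest Col1a1, Col3a1 and Col5a1 TPM. Skeletal muscle markers summed to 261.7 CPM in the 22-month EDA-labelled library 1 and to at most 10.6 elsewhere. Smooth muscle and pericyte markers ran from 55.5 to 241.0, endothelial from 258.3 to 843.9, microglial from 585.3 to 2221, pigment cell from 19.4 to 169.6 and Schwann cell from 202.2 to 820.5 CPM. Oligodendrocyte markers ran from 329.2 to 30507 and photoreceptor markers from 4.54 to 2730. Their part in the differences of the collagen genes was not tested. Xist exceeded the Y-linked genes in 1 of 3 and 0 of 5 libraries at 22 months and in 2 of 5 and 2 of 5 at 12 months, EDA-labelled first, so the sexes were mixed unevenly over the groups.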

How the data were processed

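RNA of 18 laser-captured optic nerve head samples was sequenced in read pairs from SMART-Seq v4 cDNA and Nextera XT libraries, which keep no strand, and mapped by STAR, with RSEM for abundance, per the labels' protocols. The build was GRCm39, per the submitters' processing notes. Tool versions: not given in the sources used here. The authors' deposited gene tables hold expected counts, of which 3.59% were not whole, and TPM. The deposited isoform tables hold expected counts and TPM in the same units. The 55416 identifiers were given symbols (52083 matched) and transcript types from GENCODE M21 of GRCm38, another build, so no gene coordinates are taken from it.

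Expected counts were rounded, kept with filterByExpr (15118 genes), scaled by TMM and fitted in edgeR 4.0.16 (R 4.3.3) with a quasi-likelihood model of 4 group means. The test was two-sided over 6 contrasts, with Benjamini-Hochberg adjustment over all genes and a threshold of 0.05. DESeq2 1.42.0, limma 3.58.1 (voom with quality weights), other scalings and filters, a covariate for Xist and single libraries left out were alternatives. The fits were tested on simulated data with known fold changes. Chain ratios are (expected count + 0.5) over effective length, compared by exact permutation tests. Orders of level and correlations were tested with 100000 permutations in Python 3.11.15. Levels for correlation are log2 CPM on TMM-scaled library sizes with a prior count of 2; summed marker levels are CPM of the unscaled library total. Replicates were numbered in accession order and were not paired. For each pathway list and label comparison, up to 2 genes with the smallest unadjusted p are named. The members and lists were chosen with earlier results of these data known.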

Additional observations from a re-analysis of the deposited data

Results flagged for a closer look

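In 42 groups of 5 libraries (10 genes and 4 chain ratios), 10 had 1 library far from the other 4 of its group by Dixon's test. The test flags about 1 of 20 groups when values are continuous, normally distributed and independent between groups. Here several groups hold libraries tied at no reads, and the ratios share genes with the single-gene groups. The count of 10 therefore cannot be set against that rate and is a description. On the log2 CPM scale, Col3a1 was low in the 22-month control-labelled library 5 (1.88, against 3.92 to 4.43 in the others). Col5a1 was high in the 12-month EDA-labelled library 4 (8.29, against 6.49 to 6.98), the library with the highest Gfap share. Col5a2 was low in the 12-month EDA-labelled library 3 (-0.50, against 1.42 to 1.97).

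Col5a3 was high in the 22-month control-labelled library 1 (2.43, against -2.90 to -1.49) and low in the 12-month EDA-labelled library 2 (-2.90, the value of no reads, against 0.24 to 1.10). In the 12-month control-labelled group, Col11a2 had reads only in library 5 (0.53, against -2.90 in the others) and Col27a1 only in library 1 (0.82, against -2.90).

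The log2 ratio of Col3a1 to Col1a1 was high in the 22-month control-labelled library 1 (5.27, against 0.70 to 1.91), which had 11 Col1a1 counts. The log2 ratio of Col5a1 to Col5a2 was high in the same library (9.15, against 5.38 to 6.46) and in the 12-month control-labelled library 1 (9.82, against 5.0 to 5.98). Both had no Col5a2 reads, so these ratios depend on the pseudocount.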

How the results depend on the processing

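No alternative brought a fibrillar collagen gene past the adjusted threshold. For 39 results, 997 log2 fold changes were recomputed. Of these, 973 kept their sign and 24 did not, and the signs that turned belonged to 11 results. The 39 hold only part of the age comparisons and no interaction. Outside them, without the 2 libraries that stand apart, the age difference in EDA-labelled libraries turned for all genes but Col5a1 and Col5a3. Col1a1 went from -0.02 to 1.44 and Col3a1 from -0.13 to 0.69. The interaction then turned for Col1a1 (-0.03 to 1.43), Col3a1 (-0.04 to 0.78) and Col27a1 (-0.81 to 0.63). At 22 months Col2a1 was -0.024 and Col11a1 1.04 with the Xist covariate, Col5a3 was 0.024 with RLE size factors and 0.026 in DESeq2, and Col11a2 was -2.94 in limma-voom. With both ages averaged Col11a2 was -0.46 in limma-voom. Without the 2 libraries that stand apart (chosen after seeing the data), Col11a2 was -5.55 at 22 months, and over both ages Col2a1 was 0.056, Col5a3 -1.82 and Col11a2 -1.94. The Col11a2 and Col5a3 values are fitted to a 22-month EDA-labelled group without reads. With single libraries left out, the 22-month values ran from -0.99 to 0.80 for Col2a1, -7.10 to 3.53 for Col5a3, -5.54 to 1.69 for Col11a2 and -0.11 to 2.47 for Col27a1. Over both ages they ran from -0.88 to 0.012 for Col2a1, -1.71 to 3.61 for Col5a3, -1.40 to 1.93 for Col11a1 and -2.0 to 3.83 for Col11a2. Between ages they ran from -0.033 to 4.91 for Col5a3 in control-labelled and from -0.13 to 0.96 for Col5a1 in EDA-labelled libraries. With only the groups compared in the fit, 4 genes were above 0 at 12 months, of the 6 that passed that filter.

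No ratio test passed under any alternative. The Col5a1 to Col5a2 difference at 22 months was 0.23 with a pseudocount of 0.1, and ran from -2.56 to 1.27 with single libraries left out. With both chains at 10 or more counts it was 0.10 at 12 months, and the Col1a1 to Col1a2 difference between ages in control-labelled libraries was -0.51 against 1.63 over all. In EDA-labelled libraries that difference was -0.72, against 0.25 with full-length isoforms only, 1.02 without the 2 libraries that stand apart, and -1.54 to 0.29 with single libraries left out. The number of chain pairs past the threshold was 1, and 2 when group means were not removed (Col1a1 with Col1a2 was then -0.041). It ran from 1 to 2 with single libraries left out, the second pair being Col1a1 with Col3a1, and it was 2 without the 22-month control-labelled library 1, the 12-month EDA-labelled libraries 3 or 5 or the 12-month control-labelled library 1. Col1a1 with Col1a2 ran from -0.045 to 0.44. Leaving out single libraries moved the difference in Fn1 EDA exon share at 12 months from -8.32 to between -17.2 and 7.95, the latter without the 12-month control-labelled library 5. No paired analysis was possible because the titles give an identification number per library and no replicate number. Depth limits the 6 scarce chains, whose medians were 2 to 33.5 counts per library.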
